A study of Mus musculus with 32 samples.

Results

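The genes described here encode 8 proteins that bind AU-rich elements in messenger RNA: Zfp36 with its paralogs Zfp36l1 and Zfp36l2, and Elavl1, Hnrnpd, Khsrp, Tia1 and Tial1. The members were every array feature whose gene name was 1 of these 8 symbols, which gave 13 features of the 33140 that carried a gene symbol. Of these, 12 were well above background on at least 50% of the 32 arrays, and all 8 genes kept at least 1 probe among the 16037 genes tested. The arrays held RNA of mouse bone marrow-derived macrophages (BMDMs), grown from C57BL/6 marrow in macrophage colony-stimulating factor, from wild-type (WT) mice and from mice without the type I interferon receptor chain Ifnar1 (Ifnar1-/-). Each genotype was left untreated or was treated for 6 h. LPS (100 ng/mL) and IFNβ (1000 U/mL) were each given alone, with the caspase inhibitor zVAD, or with zVAD and Nec-1, an inhibitor of the kinase RipK1, and zVAD was also given alone. The LPS and IFNβ doses are those of the sample labels, and the text of the study gives other doses. These 16 groups had 2 arrays each. The labels do not say that the 2 arrays of a group came from separate cultures or animals, so the p-values below measure only the spread between arrays. The arrays lay on 4 slides, and each slide held 8 treatments of 1 genotype and 1 replicate number, so that genotype and slide cannot be told apart wherever Ifnar1-/- and WT arrays are compared directly.

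AU-rich elements lie mostly in the 3' untranslated regions of short-lived transcripts such as those of cytokines, chemokines and immediate early genes. ZFP36, also called tristetraprolin, binds these elements and recruits the deadenylation machinery, and its mRNA is induced in macrophages by LPS and by interferons. ZFP36L1 and ZFP36L2 share its zinc finger domain and act in the same way on many transcripts, HNRNPD (AUF1) and KHSRP mostly speed decay, ELAVL1 (HuR) mostly stabilizes its targets, and TIA1 and TIAL1 restrain translation and gather stalled messages into stress granules.

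The Zfp36 probe itself lay over AU-rich sequence, and its core is shown because it carries the pentamer ATTTA that this protein family recognizes. The 60-base probe, at chr7:29161940-29161999 on the minus strand of mm9, held 2 copies. The lines below give 25 bases around each, 5' to 3' on the strand of the gene, with the pentamer in capitals.
Zfp36, chr7:29161972-29161996: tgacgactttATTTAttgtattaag
Zfp36, chr7:29161947-29161971: attttatagtATTTAtatatattgg
Of the 16037 probes tested, 86 (0.536%) held at least 2 copies of ATTTA and 1299 (8.1%) held at least 1. Among the brightest probes of the other members, only that of Khsrp held a copy. The probe coordinates are those of the array design. No annotation of that build was used here.

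The 250 bases before the start of Zfp36 are shown because the results turn on its induction by LPS and interferon. They are the RefSeq sequence of GRCm38.p6, chr7:28379229-28379478 on the minus strand, written 5' to 3'. The capitals mark, from left to right, a match to the EGR motif GCGNGGGCG (bases 105 to 97 before the start), a CArG box, the serum response factor motif (bases 58 to 49), and a GAS motif TTCNNNGAA, known from interferon-induced genes (bases 17 to 9).
Zfp36 promoter: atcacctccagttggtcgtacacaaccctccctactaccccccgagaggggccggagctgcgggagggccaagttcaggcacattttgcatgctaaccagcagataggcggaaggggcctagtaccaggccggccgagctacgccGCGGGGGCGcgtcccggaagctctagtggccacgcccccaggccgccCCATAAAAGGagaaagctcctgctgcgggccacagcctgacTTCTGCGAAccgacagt
The 3 matches do not overlap. Over 32851 mouse promoters of the same length, with both strands searched, the EGR letters were found in 4.7%, the CArG box in 1.47% and the GAS letters in 7.02%. The other 4 of the 7 motifs searched had no match in this window, namely ISRE (GAAANNGAAA, in 2.98% of promoters), AP-1 (TGANTCA, 6.75%), CRE (TGACGTCA, 1.55%) and the NF-kB motif (7.25%). Of the paralogs and other members, Zfp36l1 held an AP-1 match 129 to 123 bases before its start and Tial1 a GAS match at bases 157 to 149. The Elavl1, Hnrnpd, Khsrp and Tia1 promoters held none of the 7. Zfp36l2 had no entry in the promoter table.

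The targeted gene and the arrays were checked first. Of 3 Ifnar1 probes, 2 read lower on every Ifnar1-/- array than on any WT array (7.28 to 8.73 against 9.94 to 11.9, and 5.82 to 7.33 against 7.90 to 10.2, as log2 intensity), while the brightest probe overlapped (11.1 to 12.4 against 9.04 to 14.8). The summed level of 10 interferon-stimulated genes was 17.2 in untreated WT and 10.9 in untreated Ifnar1-/- BMDMs, and after IFNβ it stood at 20.8 and at 10.9 to 11. All 8 macrophage markers were well above background on every array, with a summed log2 level of 19.6 to 20.1. Of 18 markers of other cell types 12 were above background on at least 50% of the arrays, with a summed level of 12.6 to 14.3. Ly6g, a neutrophil gene, was higher in WT (6.81 to 12.3 against 2.75 to 5.14) and the fibroblast collagen gene Col1a1 was higher in Ifnar1-/- arrays (8.93 to 11 against 4.91 to 7.94). Of the other fibroblast markers, Col3a1 overlapped (6.23 to 7.71 in Ifnar1-/- against 5.22 to 6.54 in WT arrays), and Pdgfra was above background on no array. The T cell gene Cd3e was above background on all 32 arrays, with medians of 10.9 in WT and 10.5 in Ifnar1-/- arrays, and Cd3g on 3. Elane and Mpo, genes of granule enzymes, were well above background on all 32 arrays, with medians of 12.6 and 6.78 in WT and 12.7 and 7.77 in Ifnar1-/- arrays. Among the macrophage markers Fcgr1 also did not overlap between genotypes (12.3 to 16.7 in WT against 6.81 to 11.8 in Ifnar1-/- arrays). The part of such cells in the member results was not tested. In bulk RNA, fewer cells that express a gene and less of its RNA per cell cannot be told apart. The 2 Ifnar1-/- LPS+zVAD+Nec-1 arrays stood apart from each other, with a root mean square difference of 1.08 on the log2 scale against 0.44 to 0.78 in the other pairs. Replicate 1 was nearest to the Ifnar1-/- LPS group (0.625) and replicate 2 to the Ifnar1-/- IFNβ+zVAD+Nec-1 group (0.402). The summed level of the interferon-stimulated genes was 16.9 on replicate 1 and 13.3 on replicate 2, against 13.2 to 13.7 in Ifnar1-/- IFNβ+zVAD+Nec-1. Replicate 2 thus lay nearer to another group than to replicate 1, and whether its label is right was not tested. Member calls that rest on this pair are given with and without each array.

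Zfp36 was induced by every LPS or IFNβ treatment of WT BMDMs, and its highest levels were in groups that also received zVAD. Levels below are normalized log2 intensities, given as replicate 1 and replicate 2. Untreated WT arrays read 10.42 and 10.39. Zfp36 read 13.58 and 12.25 after LPS and 12.61 and 12.45 after IFNβ, so that all 4 arrays lay above both untreated ones. With zVAD it read 14.83 and 14.21 after LPS+zVAD and 13.63 and 14.31 after IFNβ+zVAD, which are among the highest Zfp36 values of the series. zVAD alone read 11.17 and 11.79. The LPS response was 5.7-fold, a log2 fold change of 2.51 (95% confidence interval, CI, 1.35 to 3.67, limma, Benjamini-Hochberg adjusted p = 0.00127 over all 16037 genes), and the IFNβ response was 4.35-fold (2.12, CI 0.96 to 3.28, adjusted p = 0.00565). LPS+zVAD raised Zfp36 17.3-fold (4.11, CI 2.95 to 5.28, adjusted p = 5.29e-06) and IFNβ+zVAD 11.8-fold (3.56, CI 2.40 to 4.73, adjusted p = 5.83e-05). The response to zVAD alone was 1.08 (CI -0.09 to 2.24, adjusted p = 0.92) and did not pass the test. All of these WT treatments share the same 2 untreated arrays. Within the slides, which hold 1 replicate number each, the LPS response was 3.16 on replicate 1 and 1.86 on replicate 2, and the LPS+zVAD response was 4.41 and 3.82. No alternative processing and no omission of an array ended the 4 calls after LPS, IFNβ, LPS+zVAD and IFNβ+zVAD, and without 1 array the LPS response ranged from 1.84 to 3.18.

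**Figure D1:**
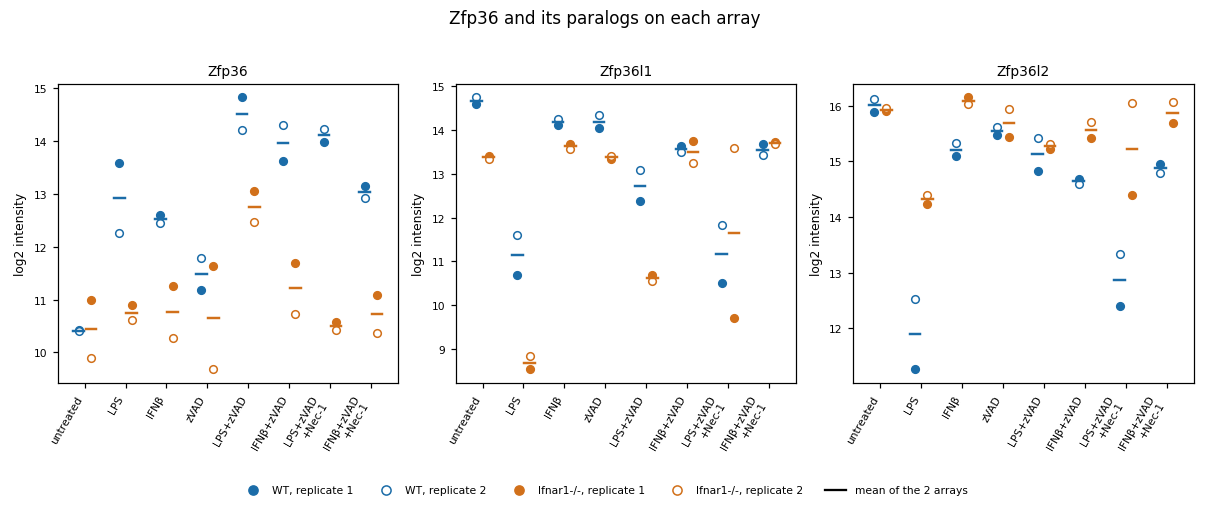
Normalized log2 intensity (y axis) of Zfp36, Zfp36l1 and Zfp36l2 on every array by treatment (x axis), with WT in blue and Ifnar1-/- in orange, filled points for replicate 1, open points for replicate 2 and a bar at the mean of the 2 arrays. The Zfp36 mean is lowest in untreated WT cells (10.42 and 10.39) and highest in WT LPS+zVAD (14.83 and 14.21), whereas Zfp36l1 is lowest in Ifnar1-/- LPS (8.54 and 8.84) and Zfp36l2 in WT LPS (11.27 and 12.53).

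In Ifnar1-/- BMDMs the untreated mean lay within 0.03 of that in WT, and neither LPS nor IFNβ alone gave a change that passed the test. Untreated Ifnar1-/- arrays read 10.99 and 9.88, LPS arrays 10.89 and 10.61 and IFNβ arrays 11.25 and 10.26, so these groups overlapped. The LPS response was 0.31 (CI -0.85 to 1.48, adjusted p = 0.773) and the IFNβ response 0.32 (CI -0.85 to 1.48). Its direction after LPS rested on untreated replicate 2, without which the value was -0.24. LPS+zVAD stood apart, at 13.06 and 12.46, above every other Ifnar1-/- array. This response was 5.0-fold (2.32, CI 1.16 to 3.49, adjusted p = 0.00411). It was 2.07 and 2.58 within the 2 slides. The call was lost without untreated replicate 2 (1.77, adjusted p = 0.0752) and without LPS+zVAD replicate 1 (2.02, adjusted p = 0.0535). IFNβ+zVAD arrays, at 11.70 and 10.73, did not differ from untreated ones beyond their spread (0.78, CI -0.38 to 1.94).

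The difference between genotypes in the Zfp36 response was tested as an interaction, in which a slide difference that is the same for every treatment cancels. The response was weaker in Ifnar1-/- cells by 2.78 on the log2 scale after IFNβ+zVAD (log2 difference -2.78, CI -4.43 to -1.14, adjusted p = 0.0178). After LPS the difference was -2.20 (CI -3.84 to -0.55, adjusted p = 0.106), after IFNβ -1.80 (CI -3.45 to -0.16, adjusted p = 0.118) and after LPS+zVAD -1.79 (CI -3.43 to -0.15, adjusted p = 0.136), and none of these 3 passed. With the replicate number as a block the LPS difference passed at adjusted p = 0.039, and with the slide as a block at 0.0152, as did the LPS+zVAD difference at 0.0257. Without WT LPS replicate 2 the LPS difference was -2.86 (adjusted p = 0.0353). The IFNβ+zVAD call was lost when any of 4 arrays was left out, with values of -2.77 (without WT untreated replicate 2), -2.23 (without Ifnar1-/- untreated replicate 1), -2.44 (without WT IFNβ+zVAD replicate 2) and -2.30 (without Ifnar1-/- IFNβ+zVAD replicate 2).

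Adding zVAD to LPS raised Zfp36 in each genotype. In WT cells LPS+zVAD exceeded LPS alone 3.04-fold (1.6, CI 0.44 to 2.77, adjusted p = 0.0309), and in Ifnar1-/- cells 4.03-fold (2.01, CI 0.85 to 3.17, adjusted p = 0.0298). Neither step is stable to the loss of an array. In WT it was 0.94 without LPS replicate 2, 1.30 without LPS+zVAD replicate 1 and 1.91 without LPS+zVAD replicate 2, with adjusted p values of 0.364, 0.174 and 0.0553. In Ifnar1-/- cells all 4 omissions ended the call, with values of 2.15 and 1.87 without LPS replicates 1 and 2, and 1.71 and 2.31 without LPS+zVAD replicates 1 and 2. The groups did not overlap in either genotype. The same addition to IFNβ gave 1.44 in WT (CI 0.28 to 2.61) and 0.46 in Ifnar1-/- cells (CI -0.70 to 1.63), and neither passed.

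The RipK1 inhibitor Nec-1, given with LPS+zVAD, left Zfp36 high in WT cells and low in Ifnar1-/- cells. WT LPS+zVAD+Nec-1 arrays read 13.99 and 14.23, a change of -0.41 from LPS+zVAD (CI -1.57 to 0.75, adjusted p = 0.661) and still 13.0-fold above untreated (3.70, adjusted p = 3.63e-05). Ifnar1-/- arrays read 10.58 and 10.42, a change of 0.06 from untreated (CI -1.1 to 1.23), which was -0.02 without replicate 1 and 0.14 without replicate 2. That is 4.79-fold below LPS+zVAD (log2 fold change -2.26, CI -3.42 to -1.1, adjusted p = 0.00859). This is the pair in which the label of replicate 2 is in doubt. Without replicate 2 the drop was -2.18 (adjusted p = 0.0578), without replicate 1 it was -2.34 (adjusted p = 0.0174), and without LPS+zVAD replicate 1 it was -1.96 (adjusted p = 0.0972). The genotype difference of the LPS+zVAD+Nec-1 response was -3.64 (CI -5.28 to -2.0, adjusted p = 0.00323), and -3.72 and -3.56 without replicate 1 and replicate 2 of the pair. IFNβ+zVAD+Nec-1 read 13.15 and 12.93 in WT, 6.2-fold above untreated (2.63, adjusted p = 0.00128), and 11.09 and 10.37 in Ifnar1-/- cells (0.29, CI -0.87 to 1.45). Here the genotype difference of the response was -2.34 (adjusted p = 0.0437), a call that 7 of the 8 omissions of an array ended (-1.79 to -2.70).

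Ordered by group mean, Zfp36 was highest in WT LPS+zVAD (14.52), WT LPS+zVAD+Nec-1 (14.11) and WT IFNβ+zVAD (13.97). A gap of 0.93, with no overlap of arrays, separated these from WT IFNβ+zVAD+Nec-1 (13.04), WT LPS (12.92), Ifnar1-/- LPS+zVAD (12.76) and WT IFNβ (12.53). After a second gap of 1.04 came WT zVAD (11.48) and then the remaining Ifnar1-/- groups (11.22 to 10.44) and untreated WT (10.41). Neighbours inside each of these blocks differed by less than the pooled SD of 0.587 between arrays of a group. Over the 16 group means, the genes whose pattern was most like that of Zfp36 among the other 16036 were Rlim (Pearson r = 0.959), Phf20l1 (0.957), Chtop (0.955), Socs4 (0.953) and Sertad1 (0.953). For Zfp36l1 they were B930049P21Rik (0.98), Agmo (0.975) and Ptpn18 (0.960), and for Zfp36l2 they were Gas5 (0.954), Eepd1 (0.951) and Smad7 (0.947). The group means share their arrays and slides, and these correlations are a description.

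Zfp36l1 fell sharply after LPS in both genotypes, and no change after IFNβ passed the test. WT arrays read 14.60 and 14.74 untreated and 10.70 and 11.59 after LPS (log2 fold change -3.52, CI -5.03 to -2.02, adjusted p = 0.000643). Ifnar1-/- arrays read 13.41 and 13.35 untreated and 8.54 and 8.84 after LPS, a 25.7-fold fall (-4.69, CI -6.19 to -3.18, adjusted p = 0.000172). The 2 Ifnar1-/- LPS arrays were the lowest of the series. After IFNβ the change was -0.48 in WT (14.12 and 14.25, CI -1.99 to 1.02) and 0.25 in Ifnar1-/- cells (13.69 and 13.57, CI -1.25 to 1.76). The IFNβ and untreated arrays did not overlap in either genotype. With LPS+zVAD the level stood between untreated and LPS. WT read 12.37 and 13.09 (-1.94, adjusted p = 0.0301) and Ifnar1-/- cells 10.70 and 10.56 (-2.75, CI -4.25 to -1.24, adjusted p = 0.0075). The WT call was lost without untreated replicate 1 (-2.02) or 2 (-1.87), without LPS+zVAD replicate 1 (-1.58), and under a shift of each array to a common 75th percentile (-1.48, adjusted p = 0.095).

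The rise of Zfp36l1 from LPS to LPS+zVAD was 1.58 in WT (CI 0.07 to 3.09, adjusted p = 0.0999) and 1.94 in Ifnar1-/- cells (CI 0.43 to 3.44, adjusted p = 0.107), with no overlap of arrays in either, and neither passed. With Nec-1 the WT arrays were again low, at 10.51 and 11.83 (-3.50 from untreated, adjusted p = 0.000704). The Ifnar1-/- arrays of that group disagreed, at 9.70 and 13.59, and their mean change of -1.73 (CI -3.24 to -0.23, adjusted p = 0.287) describes neither. Their SD was 2.75, against a pooled SD of 0.766 over the 16 groups. The Zfp36l1 intervals and p-values of every comparison share a spread that takes in this pair. A Zfp36l1 value that did not pass therefore does not show that the gene was unchanged. No genotype difference of a Zfp36l1 response passed the test, and that of the LPS response was -1.16 (CI -3.29 to 0.97).

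Zfp36l2 fell after LPS as well, but here the genotypes differed, and in WT cells LPS+zVAD left the level far above that after LPS alone. Untreated arrays read 15.89 and 16.13 in WT and 15.91 and 15.95 in Ifnar1-/- cells. After LPS, WT arrays read 11.27 and 12.53 (17.3-fold lower, log2 fold change -4.11, CI -5.0 to -3.23, adjusted p = 8.32e-07), while Ifnar1-/- arrays read 14.24 and 14.40 (3.06-fold lower, -1.61, CI -2.50 to -0.73, adjusted p = 0.00848). The Ifnar1-/- call was lost without untreated replicate 2 (-1.59), without LPS replicate 1 (-1.53) and under the 75th percentile shift (-1.19, adjusted p = 0.105). The fall was smaller in Ifnar1-/- cells by 2.5 (CI 1.25 to 3.75, adjusted p = 0.015). This difference lost its call without WT LPS replicate 1 (1.87), Ifnar1-/- LPS replicate 2 (2.42), WT untreated replicate 2 (2.38) or Ifnar1-/- untreated replicate 1 (2.48), the first with adjusted p = 0.114 and the others between 0.0577 and 0.0604.

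In WT cells Zfp36l2 read 14.83 and 15.43 after LPS+zVAD, 9.39-fold above LPS alone (3.23, CI 2.34 to 4.12, adjusted p = 1.19e-05) and not detectably below untreated (-0.88, CI -1.77 to 0.005). Adding Nec-1 took it down again, to 12.40 and 13.34, 4.78-fold below LPS+zVAD (-2.26, CI -3.14 to -1.37, adjusted p = 0.000524) and 8.8-fold below untreated (-3.14, adjusted p = 1.22e-05). In a fit of these 4 arrays alone the Nec-1 step had adjusted p = 0.0625. The Ifnar1-/- arrays read 15.23 and 15.32 after LPS+zVAD, 0.95 above LPS (CI 0.07 to 1.84, adjusted p = 0.19), and 14.40 and 16.05 with Nec-1. The genotype difference of the LPS+zVAD+Nec-1 response was 2.43 (adjusted p = 0.00793). It was 1.61 without Ifnar1-/- LPS+zVAD+Nec-1 replicate 2 and 3.25 without replicate 1, and without WT replicate 1 of that treatment it was 1.96 (adjusted p = 0.0531). IFNβ alone gave 15.09 and 15.33 in WT, below both untreated arrays by -0.80 on each slide, which did not pass. The Ifnar1-/- IFNβ arrays read 16.15 and 16.03. IFNβ+zVAD lowered Zfp36l2 in WT by a log2 fold change of -1.37 (14.69 and 14.60, adjusted p = 0.0154), which became -0.77 (adjusted p = 0.287) under the 75th percentile shift. This call was lost without WT untreated replicate 2 (-1.25) or either IFNβ+zVAD array (-1.41 and -1.32).

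In WT cells Zfp36 therefore moved in the opposite direction to its paralogs after LPS, and the ratio between them changed by more than either alone. The ratio was taken on each array, so that a shift common to all probes of an array cancels in it. In WT cells log2(Zfp36/Zfp36l1) rose by 6.03 after LPS (SE 0.94, adjusted p = 5.28e-05) and log2(Zfp36/Zfp36l2) by 6.62 (SE 0.82, adjusted p = 5.24e-06). In Ifnar1-/- cells the first rose by 5.00 (SE 0.94, adjusted p = 0.00079), with Zfp36 itself at 0.31, which did not pass, and Zfp36l1 at -4.69. The second changed by 1.92 (SE 0.82, adjusted p = 0.0971), which did not pass. The genotype difference was -4.70 for Zfp36l2 (SE 1.16, adjusted p = 0.0183) and -1.03 for Zfp36l1 (CI -3.82 to 1.75). After LPS+zVAD the ratio to Zfp36l1 rose by 6.05 in WT and 5.07 in Ifnar1-/- cells, and that to Zfp36l2 by 4.99 and 2.98 (adjusted p = 0.0102 for the last).

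Relative to the other members, Zfp36 rose against all but Hnrnpd in WT cells. After LPS the change in the log2 ratio was 1.88 against Elavl1, 3.11 against Khsrp, 3.07 against Tia1 and 3.10 against Tial1, all past the test, and 0.94 against Hnrnpd (CI -0.33 to 2.21, adjusted p = 0.238). Hnrnpd was also the exception after IFNβ (0.82, CI -0.45 to 2.09). After LPS+zVAD and IFNβ+zVAD, Zfp36 rose against each of the 7 other genes, including Hnrnpd (2.81, adjusted p = 0.000681, and 2.34, adjusted p = 0.00486). After LPS the Ifnar1-/- ratio to Elavl1 changed by -0.01 (CI -1.35 to 1.32) and that to Hnrnpd by -0.91 (CI -2.18 to 0.36). After LPS+zVAD the Ifnar1-/- ratios to Khsrp (2.27), Tia1 (2.76) and Tial1 (2.18) rose as well.

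**Figure D2:**
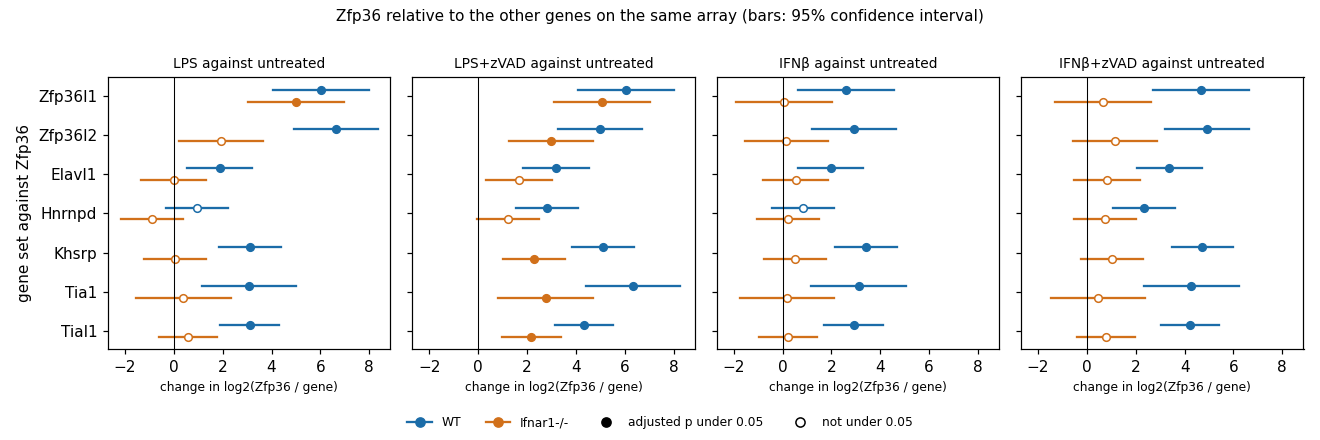
Change against untreated in the log2 ratio of Zfp36 to each other gene (x axis, log2 units) for LPS, LPS+zVAD, IFNβ and IFNβ+zVAD, with WT in blue, Ifnar1-/- in orange, bars for the 95% confidence interval of the limma fit and filled points where the adjusted p was under 0.05. After LPS the WT change is 6.03 against Zfp36l1 and 6.62 against Zfp36l2, and the Ifnar1-/- change is 5.00 and 1.92.

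Hnrnpd, whose product AUF1 promotes decay of many cytokine messages, rose after every WT treatment with LPS or IFNβ. WT arrays read 12.32 and 11.81 untreated, 13.68 and 13.58 after LPS, 13.39 and 13.32 after IFNβ and 13.62 and 13.10 after LPS+zVAD. The LPS response was 2.97-fold (1.57, CI 1.05 to 2.09, adjusted p = 6.19e-05), the IFNβ response 2.46-fold (1.30, adjusted p = 0.000471) and the LPS+zVAD response 2.46-fold (1.30, adjusted p = 0.000223). Every treated array of these groups lay above both untreated ones. LPS raised Hnrnpd in Ifnar1-/- cells too, from 12.29 and 12.26 to 13.41 and 13.57 (1.22, adjusted p = 0.00147), and LPS+zVAD gave 1.1 (13.22 and 13.51, adjusted p = 0.00281). IFNβ gave 0.10 (12.29 and 12.46, CI -0.42 to 0.63). The genotype difference of the response did not pass after LPS (-0.35, CI -1.09 to 0.38) and LPS+zVAD (-0.20, CI -0.94 to 0.53), and passed after IFNβ (-1.19, adjusted p = 0.0225), IFNβ+zVAD (-1.19, adjusted p = 0.023) and IFNβ+zVAD+Nec-1 (-1.53, adjusted p = 0.00494).

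The Hnrnpd differences after IFNβ and IFNβ+zVAD lost their calls without WT untreated replicate 2 (-0.94 and -0.93), either Ifnar1-/- untreated array (-1.18 and -1.21 after IFNβ, -1.17 and -1.21 after IFNβ+zVAD), Ifnar1-/- replicate 1 of the treatment (-1.1 and -1.08) or WT replicate 1 of it (-1.16 and -1.04). With Nec-1 added to LPS+zVAD the Ifnar1-/- arrays read 12.94 and 11.95, below LPS+zVAD by a log2 fold change of -0.92 (adjusted p = 0.015), and this became -0.42 without replicate 2 (adjusted p = 0.296) and -1.41 without replicate 1. The genotype difference of that response was -1.27 (adjusted p = 0.0162). It was -0.78 without the same replicate 2 (adjusted p = 0.0973), -1.77 without replicate 1, and it also lost its call without Ifnar1-/- untreated replicate 1 (-1.26, adjusted p = 0.0521), WT LPS+zVAD+Nec-1 replicate 1 (-1.26, adjusted p = 0.0507) or WT untreated replicate 2 (-1.02, adjusted p = 0.0955).

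Elavl1, whose product HuR stabilizes AU-rich messages, was bright and rose after LPS and LPS+zVAD in WT cells. WT arrays of the brightest probe read 13.83 and 13.86 untreated, 14.36 and 14.59 after LPS and 14.61 and 14.94 after LPS+zVAD. The LPS response was 1.55-fold (0.63, adjusted p = 0.0128) and the LPS+zVAD response 1.91-fold (0.93, CI 0.53 to 1.34, adjusted p = 0.000463). Under the 75th percentile shift these log2 fold changes were 1.26 and 1.71. The LPS call was lost without untreated replicate 1 (0.61) or 2 (0.65) or LPS replicate 2 (0.52). LPS+zVAD gave 0.66 in Ifnar1-/- cells (adjusted p = 0.0152), a call that every omission of an array ended (0.60 and 0.71 without LPS+zVAD replicates 2 and 1, 0.60 and 0.71 without untreated replicates 1 and 2). IFNβ gave no Elavl1 change that passed in WT (0.15) or Ifnar1-/- cells (-0.21), although its arrays did not overlap the untreated ones in either genotype.

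A second Elavl1 probe gave a different picture. It read 7.48 and 7.58 in untreated WT, 7.32 and 7.22 after LPS, and in Ifnar1-/- cells 7.42 and 7.82 untreated, 8.73 and 8.93 after LPS and 9.11 and 9.34 after LPS+zVAD. By this probe LPS raised Elavl1 in Ifnar1-/- cells (1.22, adjusted p = 0.0101) and not in WT (-0.26, CI -0.95 to 0.43). The difference between the 2 probes on the same array changed with LPS by -0.89 in WT and 0.89 in Ifnar1-/- cells, and these changes differed between genotypes (1.78, adjusted p = 0.0113). The 2 probes thus disagreed after LPS, and the Elavl1 values above hold for the brightest probe only.

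Khsrp, whose product recruits decay enzymes, showed no stable change in its brightest probe. WT untreated arrays read 14.90 and 16.06, the second above every other Khsrp array of the series, and after IFNβ 14.59 and 13.80. The only call was this IFNβ response in WT (-1.28, adjusted p = 0.0416). It became -0.71 (adjusted p = 0.402) without untreated replicate 2, -0.89 without IFNβ replicate 2 and -0.71 under the 75th percentile shift. The second probe was dim, at 6.02 and 5.97 in untreated WT, and rose after LPS to 6.72 and 6.93 (0.83, adjusted p = 0.008) and after LPS+zVAD to 7.08 and 7.12 (1.1, adjusted p = 0.000632). Its values in Ifnar1-/- cells after LPS did not pass (0.42, CI -0.07 to 0.91).

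Tia1 and Tial1 encode related stress granule proteins, and in WT cells the second probe of each fell after LPS and after IFNβ. The brightest Tial1 probe read 13.13 and 13.24 in untreated WT, 12.55 and 12.65 after LPS and 12.36 and 12.44 after IFNβ. These small falls passed (-0.59, adjusted p = 0.00148, and -0.79, adjusted p = 0.000135) but not under the 75th percentile shift (-0.18, adjusted p = 0.558, and -0.51, adjusted p = 0.0631). The second Tial1 probe read 10.92 and 11.18 untreated, 8.58 and 9.80 after LPS, 8.84 and 9.19 after IFNβ, 8.02 and 7.74 after LPS+zVAD and 8.41 and 8.72 after IFNβ+zVAD. All 8 treated arrays lay below both untreated ones by more than 1 log2 unit. Its responses were -1.86 (LPS, adjusted p = 5.31e-05), -2.04 (IFNβ, adjusted p = 2.37e-05), -3.17 (LPS+zVAD, adjusted p = 6.08e-08) and -2.49 (IFNβ+zVAD, adjusted p = 2.32e-06), and they passed under the 75th percentile shift too (-1.75, -1.98, -2.95 and -2.41).

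The second Tial1 probe read, in Ifnar1-/- cells, 10.91 and 10.69 untreated and 10.67 and 10.71 after LPS (-0.11, CI -0.71 to 0.50), and its lowest pair was LPS+zVAD at 10.00 and 10.08 (-0.76, CI -1.36 to -0.15, adjusted p = 0.0567). The genotype difference of the response passed after LPS (1.75, adjusted p = 0.0129), IFNβ (2.07, adjusted p = 0.00154) and LPS+zVAD (2.41, adjusted p = 0.000567). The 2 Tial1 probes did not move together. Their difference on the same array changed by -1.27 after LPS (adjusted p = 0.00207) and by -2.95 after LPS+zVAD (adjusted p = 1.96e-07) in WT. The brightest probe even rose from LPS to LPS+zVAD in WT (0.36, adjusted p = 0.0411), where the second fell (-1.32, adjusted p = 0.00149). That rise was lost without LPS replicate 1 (0.31) or 2 (0.41) and without LPS+zVAD replicate 2 (0.18), and the median of the 2 probes gave -0.48. Which transcripts each probe detects was not tested.

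The brightest Tia1 probe read 7.33 and 7.68 in untreated WT and 5.46 and 5.11 after LPS+zVAD, 4.67-fold lower (-2.22, CI -3.75 to -0.69, adjusted p = 0.0156). This call was lost without untreated replicate 2 (-2.05) or LPS+zVAD replicate 2 (-2.05). It also passed after IFNβ+zVAD+Nec-1 (-2.21, adjusted p = 0.0264), where the 2 arrays disagreed, at 3.25 and 7.35. The first of these was not well above background, so that only 1 array of the group measured it. Without the first the value was -0.15 (adjusted p = 0.814), and the call was also lost without untreated replicate 1 (-2.38, adjusted p = 0.0697) or 2 (-2.03, adjusted p = 0.131). The second Tia1 probe read 6.25 and 6.72 untreated, 4.66 and 5.55 after LPS, 4.48 and 5.21 after IFNβ and 3.49 and 2.26 after LPS+zVAD. This second probe fell after LPS (-1.38, adjusted p = 0.0229) and IFNβ (-1.64, adjusted p = 0.00969). The brightest probe read 6.68 and 7.21 after LPS and 6.23 and 6.80 after IFNβ, below untreated, but neither change passed. After LPS+zVAD the second probe was not well above background on either array. Set at the lowest signal that counted as above background on these arrays, it was 7.21-fold lower than untreated. That is no strict bound, since a spot with a higher signal can also fail to count as above background. The limma fit took the readings as they stand (adjusted p = 3.13e-06) and does not test this fold. In Ifnar1-/- cells the second probe read 6.32 and 6.63 untreated, 6.03 and 6.56 after LPS (-0.18, CI -1.15 to 0.80) and 4.75 and 5.47 after LPS+zVAD (-1.36, adjusted p = 0.0336). Replicate 1 of this LPS+zVAD pair was not well above background, so that only 1 array of the group measured the probe. The remaining Tia1 probe was above background on only 3 arrays and was not used.

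**Figure D3:**
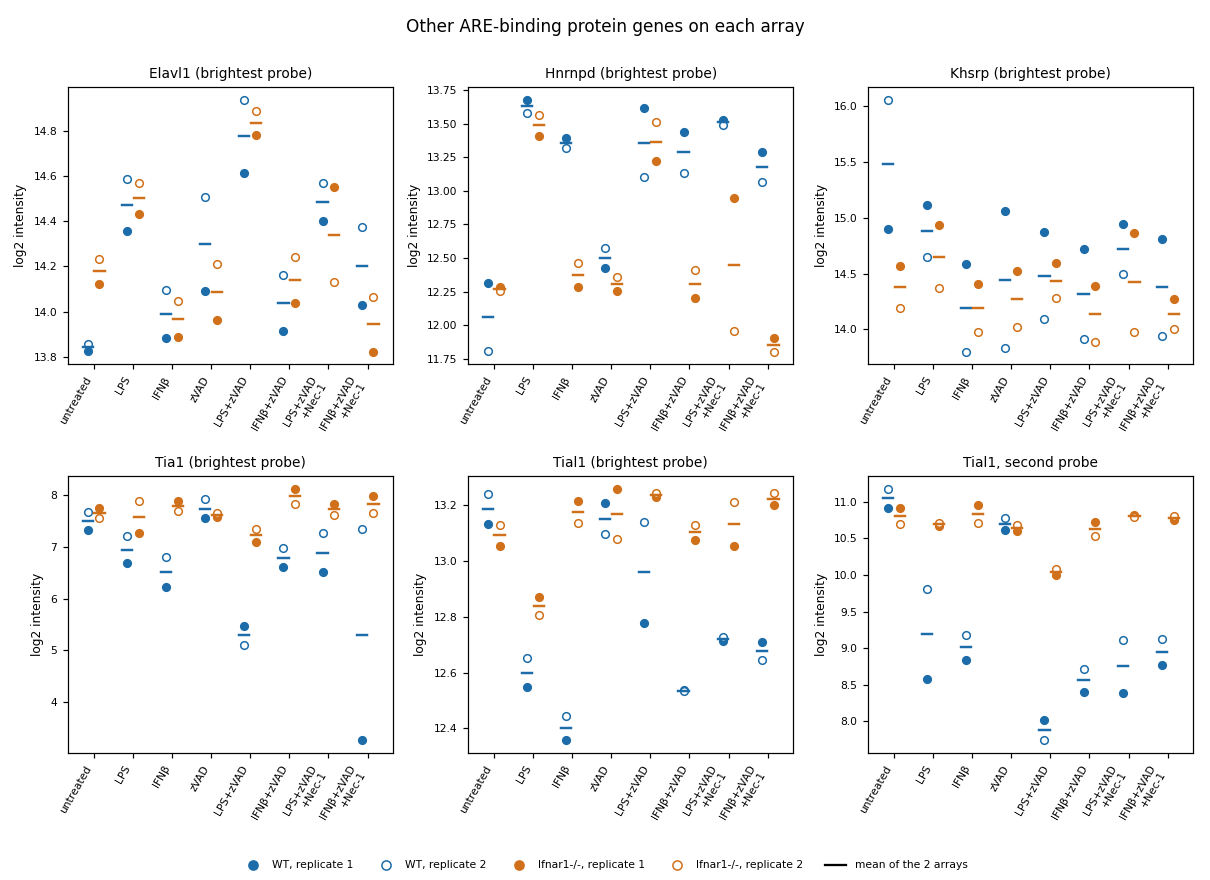
Normalized log2 intensity (y axis) on every array by treatment (x axis) for the brightest probes of Elavl1, Hnrnpd, Khsrp, Tia1 and Tial1 and the second probe of Tial1, with WT in blue, Ifnar1-/- in orange, filled points for replicate 1, open points for replicate 2 and a bar at the mean of the 2 arrays. Hnrnpd rises in WT after both LPS and IFNβ and in Ifnar1-/- cells after LPS, and the second Tial1 probe falls in WT from 10.92 and 11.18 to 8.02 and 7.74 after LPS+zVAD.

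Counted over the 8 genes by their brightest probes, 6 passed the test after LPS in WT cells, with Zfp36, Elavl1 and Hnrnpd higher and Zfp36l1, Zfp36l2 and Tial1 lower, against 41.7% of all genes tested. After LPS+zVAD 5 passed (3 higher and 2 lower, 51.3% of all genes), after IFNβ 4 (2 and 2, 36.1%), after IFNβ+zVAD 4 (2 and 2, 38.3%), after LPS+zVAD+Nec-1 6 (3 and 3, 41.5%) and after IFNβ+zVAD+Nec-1 5 (2 and 3, 32.6%). With so many genes moving, these shares lie near or above the background, and with 8 genes they say little about the group as a whole. The Zfp36l2 call after IFNβ+zVAD+Nec-1 (-1.14) was lost without any of its 4 arrays (-1.26 to -1.02), and the Elavl1 call after LPS+zVAD+Nec-1 (0.64) without untreated replicate 1 (0.63) or treated replicate 2 (0.56). The Tial1 calls in both Nec-1 groups were lost without untreated replicate 2 (-0.41 after LPS+zVAD+Nec-1 and -0.45 with IFNβ in place of LPS). After zVAD alone no member passed (0.00624% of genes), and 2 members had a limma p under 0.05 before adjustment. In Ifnar1-/- cells 3 passed after LPS (1 higher and 2 lower, 25.2% of genes) and 4 after LPS+zVAD (3 and 1, 29%). No member passed after IFNβ (0% of genes), zVAD (0%), IFNβ+zVAD (0.00624%), LPS+zVAD+Nec-1 (1.33%) or IFNβ+zVAD+Nec-1 (1.78%), where limma p was under 0.05 before adjustment for 1 member in LPS+zVAD+Nec-1 and for 0 in the others.

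By the brightest probes, adding zVAD to LPS moved 3 members in WT, all higher (34.6% of genes), and 1 in Ifnar1-/- cells (8.52%). Adding Nec-1 to LPS+zVAD lowered 1 in WT (28.4%) and 2 in Ifnar1-/- cells (19.4%). Adding zVAD to IFNβ moved none in WT (0% of genes, 1 member before adjustment) or in Ifnar1-/- cells (0.00624%, 0 members), and adding Nec-1 to IFNβ+zVAD moved none in WT (0%, 0 members) or in Ifnar1-/- cells (1.61%, 0 members). The response differed between genotypes for 1 member after LPS (Zfp36l2, 6.63% of genes), 2 after IFNβ (Hnrnpd and Tial1, 19.3%), 3 after IFNβ+zVAD (19.8%), 3 after LPS+zVAD+Nec-1 (18.2%) and 3 after IFNβ+zVAD+Nec-1 (18.5%). By the brightest probes no member passed the test of this difference after zVAD (0%, 0 members before adjustment by limma). None passed after LPS+zVAD either (16.3%, 1 member before adjustment by limma), which does not show that the responses were equal. The Zfp36 difference after LPS+zVAD was -1.79. It passed with the slide as a block and under the percentile shift (-2.32), but in none of the 8 omissions of an array. The second Tial1 probe, not counted here, differed after LPS, IFNβ and LPS+zVAD, as given above.

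**Figure D4:**
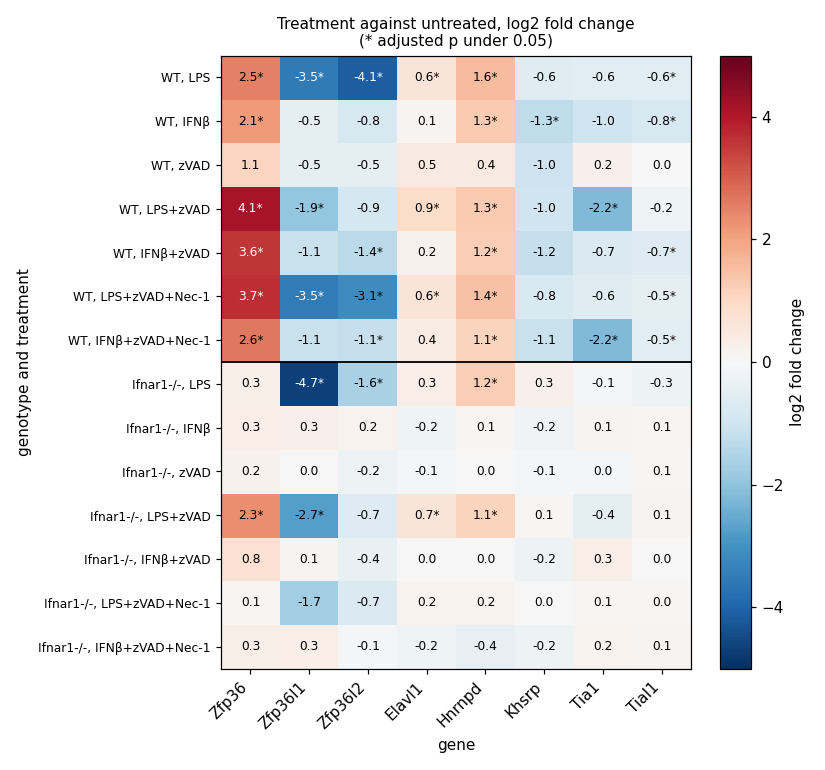
Heat map of the log2 fold change against untreated for 14 genotype and treatment rows and the 8 genes (columns, brightest probe), with red for higher and blue for lower and an asterisk where the limma adjusted p was under 0.05. The Zfp36 column is red in every WT row and in the Ifnar1-/- LPS+zVAD row (2.32), and the Zfp36l1 and Zfp36l2 columns are blue in the WT LPS row (-3.52 and -4.11) and the Ifnar1-/- LPS row (-4.69 and -1.61).

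Ifnar1-/- and WT arrays were also compared directly by the brightest probes, where slide and genotype cannot be told apart. No member passed in untreated cells (8.72% of genes, 1 member before adjustment by limma) or after zVAD (8.24%, 0 members before adjustment). Zfp36 itself was 0.03 apart in untreated cells (CI -1.13 to 1.19). After LPS 3 members passed (28.6% of genes), with Zfp36 4.5-fold lower (-2.17, adjusted p = 0.00613), Zfp36l1 5.49-fold lower (-2.46, adjusted p = 0.0147) and Zfp36l2 5.36-fold higher (2.42, adjusted p = 0.000273) in Ifnar1-/- cells. After LPS+zVAD 3 passed (37.6%), with Zfp36 3.39-fold lower (-1.76, adjusted p = 0.0172), Zfp36l1 4.29-fold lower (-2.10, adjusted p = 0.0272) and Tia1 3.84-fold higher (1.94, adjusted p = 0.0429). After IFNβ 3 passed (43.9%), after IFNβ+zVAD 3 (43.8%), after LPS+zVAD+Nec-1 4 (40.4%) and after IFNβ+zVAD+Nec-1 4 (42.2%). Zfp36 was lower in all 4 of these, by log2 values of -1.77, -2.76, -3.61 and -2.32.

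Single arrays decided several of these values. The Tia1 difference after IFNβ+zVAD+Nec-1 (2.53) rests on WT replicate 1, whose spot was not well above background. It was 0.47 without that array and 2.36 without Ifnar1-/- replicate 1, no longer called in either case. The Hnrnpd difference after LPS+zVAD+Nec-1 (-1.06) was -0.57 without Ifnar1-/- replicate 2, no longer called, and -1.56 without Ifnar1-/- replicate 1. The Zfp36l2 difference there (2.35) was 1.53 and 3.17, and the Zfp36 difference -3.53 and -3.69, called in each case. For Zfp36l1, with no call there (0.47), the value was -1.47 (adjusted p = 0.0115) without Ifnar1-/- replicate 2 and 2.41 (adjusted p = 0.000141) without Ifnar1-/- replicate 1. The Tial1 difference there (0.41) lost its call without either WT array (0.40 and 0.42) or Ifnar1-/- replicate 2 (0.33), and was 0.49 without Ifnar1-/- replicate 1. The Zfp36 difference after LPS was -1.50 without WT LPS replicate 1 and -2.03 without Ifnar1-/- LPS replicate 2, that after LPS+zVAD -1.45 without WT replicate 1 and -1.46 without Ifnar1-/- replicate 2, and that after IFNβ -1.70 without WT replicate 1 and -1.28 without Ifnar1-/- replicate 2, all no longer called. The Zfp36l1 difference after LPS lost its call without Ifnar1-/- LPS replicate 1 (-2.30) or 2 (-2.61) or WT LPS replicate 2 (-2.01). After LPS+zVAD it lost it without Ifnar1-/- replicate 1 (-2.17) or 2 (-2.03) or WT replicate 2 (-1.74), and with the slide as a random block (adjusted p = 0.0595). The Tia1 difference after LPS+zVAD lost its call without any of its 4 arrays (1.77 to 2.12).

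Transcripts with AU-rich elements were described by a list of 27 genes, 22 of them tested. The list is largely of cytokine and chemokine genes and was chosen with earlier results known. A rise after LPS was therefore built into the choice, and its median against all genes is no test of AU-rich elements. For genes silent in untreated cells, passing the background filter also rests on the treated groups. After LPS 18 rose and 3 fell in WT (median log2 fold change 5.44, against -0.09 over all genes), and 17 rose and 3 fell in Ifnar1-/- cells (4.55 against -0.07). Over all genes 41.7% were called after LPS in WT and 25.2% in Ifnar1-/- cells, and these shares stand behind the list counts after LPS here and for the lists that follow. After LPS+zVAD they were 51.3% and 29%. The response of only 2, Ccl2 (-4.20) and Nos2 (-4.65), differed between genotypes (6.63% of all genes). Tnf, a classical ZFP36 target, rose by 5.91 (SE 1.12, adjusted p = 0.00032) in WT and by 7.55 (SE 1.12) in Ifnar1-/- cells after LPS, with a genotype difference of 1.64 (SE 1.58, adjusted p = 0.68). After LPS+zVAD Tnf rose by 7.73 and 8.04, a difference of 0.31. In WT after LPS, Il6 (12.76), Ptgs2 (11.15) and Il1a (9.92) rose most of the list. In untreated Ifnar1-/- cells Il6 was not well above background. Its rise there after LPS is 8875-fold if the untreated level is set at the lowest signal that counted as above background, which is no strict bound. After LPS+zVAD 20 rose and 0 fell in WT (6.45, against -0.17) and 18 rose and 1 fell in Ifnar1-/- cells (5.26, against -0.11), and the response of 4, Ccl2 (-4.67), Plau (-4.07), Plaur (-2.43) and Myc (-2.26), was lower in Ifnar1-/- cells (16.3% of all genes differed). After IFNβ 13 rose and 0 fell in WT (2.73, against -0.18, with 36.1% of all genes called). In Ifnar1-/- cells none passed after IFNβ by limma (0.17, against -0.01), and for 0 of them was p under 0.05 before adjustment. The response to IFNβ was lower in Ifnar1-/- cells for 10 of the 22 (-2.29, against 0.18, with 19.3% of all genes differing). It was lower for 8 after IFNβ+zVAD (19.8% of all genes), for 9 after LPS+zVAD+Nec-1 (18.2%, with both arrays of the pair that stood apart) and for 10 after IFNβ+zVAD+Nec-1 (18.5%), and higher for 0 in each of these.

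A list of 16 genes, all tested, held kinase and phosphatase genes linked to ZFP36 and the adaptor genes Ywhab, Ywhae, Ywhag and Ywhaz. Not all of their products act on ZFP36 directly. After LPS 8 rose and 2 fell in WT (median 0.47, against -0.09) and 5 rose and 1 fell in Ifnar1-/- cells (0.33, against -0.07). Mapkapk2, the kinase MK2 that phosphorylates ZFP36 downstream of p38, rose in WT (2.04, SE 0.48, adjusted p = 0.00228) and in Ifnar1-/- cells (2.82, SE 0.48, adjusted p = 0.000405). Dusp1, the phosphatase that switches p38 off, rose in WT after LPS (2.92, SE 0.54, adjusted p = 0.000242) and IFNβ (2.26, adjusted p = 0.00272), and its value in Ifnar1-/- cells after LPS was -0.57 (adjusted p = 0.51). Its LPS response was the only one of the 16 that differed between genotypes (-3.50, SE 0.76, adjusted p = 0.00783). After LPS+zVAD 6 rose and 3 fell in WT (0.25, against -0.17), and 6 rose and 1 fell in Ifnar1-/- cells (0.20, against -0.11).

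Of 26 other RNA-binding proteins, 24 were tested. After LPS 8 rose and 2 fell in WT (median 0.13, against -0.09), and 5 rose and 3 fell in Ifnar1-/- cells (0.02, against -0.07). After LPS+zVAD 12 rose and 1 fell in WT (0.74, against -0.17) and 6 rose and 2 fell in Ifnar1-/- cells (0.25, against -0.11). Zc3h12a, the endonuclease Regnase-1 that cleaves cytokine messages, rose after LPS in WT (3.13, SE 0.72, adjusted p = 0.00167) and in Ifnar1-/- cells (3.75, SE 0.72, adjusted p = 0.000898). Arid5a, which protects such messages, rose by 2.08 after LPS and by 4.10 (SE 0.30, adjusted p = 8.97e-09) after IFNβ in WT, and its IFNβ response was lower in Ifnar1-/- cells (-4.19, adjusted p = 2.05e-06). Elavl4 (-2.41) and Fmr1 (-1.23) were the 2 whose LPS response differed between genotypes.

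The deadenylation and decapping machinery that ZFP36 recruits was described by 27 genes, all tested. After LPS 5 rose and 9 fell in WT (median -0.09, the same as over all genes), and 3 rose and 3 fell in Ifnar1-/- cells (-0.21, against -0.07). After LPS+zVAD 7 rose and 10 fell in WT (-0.06, against -0.17), and 2 rose and 6 fell in Ifnar1-/- cells (-0.02, against -0.11). Dcp2, the decapping enzyme, rose by 2.64 (SE 0.37, adjusted p = 1.87e-05) after LPS and by 4.19 after LPS+zVAD in WT, with a genotype difference of -3.67 (SE 0.52, adjusted p = 0.000133) after LPS+zVAD. Cnot6l, a deadenylase subunit, fell after LPS in WT (-1.43, adjusted p = 0.000503) and in Ifnar1-/- cells (-1.29, adjusted p = 0.00253). The LPS response of Xrn1, the exonuclease that degrades decapped RNA, was the only one that differed between genotypes (-1.76, adjusted p = 0.0368).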

How the data were processed

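RNA from 32 BMDM samples was hybridized to single-colour Agilent arrays. The authors deposited the scanner's processed spot intensity values for each array, background-subtracted by the scanner software, and normalized log2 values for the whole series, which the authors made from probes above background, background-subtracted and quantile normalized, and which served here only as an alternative. Here the processed intensities were log2-transformed and quantile normalized. Probes well above background on at least 50% of arrays were kept (21465 of 33140 features with a symbol, of 55681 in all), outlier spots were left out, and the brightest kept probe stood for each of 16037 genes. No kept spot was saturated. Levels of different probes cannot be compared. In R 4.3.3, limma 3.58.1 (with the package data.table, version 1.17.8) fitted a mean for each of the 16 groups, which left 16 residual degrees of freedom. Adjustment was by Benjamini-Hochberg over all genes, and an adjusted p under 0.05 was called. The number of arrays, 2 a group, limits the precision. The members and gene lists were chosen with earlier results of these data known. The text describes all 8 members and, of each gene list, at most the 4 called genes with the largest change in a comparison, with Tnf, Dusp1, Mapkapk2 and Zc3h12a in addition. Ratios of Zfp36 to another gene and second probes were fitted in the same model, the second probes as an alternative added after seeing the data. The interaction subtracts the WT response from that of Ifnar1-/- cells.

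Deviations from the group means correlated between arrays of the same slide at 0.169 to 0.670 (median 0.463, 56 pairs), and at 0.320 to 0.670 without the pair that stood apart (49 pairs). Replicate numbers therefore pair arrays within a genotype through the slide. Between genotypes the same number correlated at -0.000862 to 0.329 (median 0.154, 64 pairs). The alternatives were a 75th percentile shift, normexp background correction (offset 50), no filter and a filter of 2 arrays, the median of a gene's probes, fits of the compared groups alone, replicate and slide blocks, the authors' values, limma-trend with robust moderation, outlier spots kept (added after seeing the data), both Ifnar1-/- LPS+zVAD+Nec-1 arrays left out, and each array left out in turn. The fitting script was tested on simulated data.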

Additional observations from a re-analysis of the deposited data

Results flagged for a closer look

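The response differed between genotypes, by the interaction test on the brightest probes, in 12 cases. They are given as the Ifnar1-/- response minus the WT response, as log2 differences. For Zfp36 the difference was -2.78 after IFNβ+zVAD, -3.64 after LPS+zVAD+Nec-1 and -2.34 after IFNβ+zVAD+Nec-1. For Zfp36l2 it was 2.5 after LPS and 2.43 after LPS+zVAD+Nec-1. For Hnrnpd it was -1.19 after IFNβ, -1.19 after IFNβ+zVAD, -1.27 after LPS+zVAD+Nec-1 and -1.53 after IFNβ+zVAD+Nec-1. For Tial1 it was 0.87 after IFNβ, 0.66 after IFNβ+zVAD and 0.64 after IFNβ+zVAD+Nec-1. Under the 75th percentile shift the 3 Tial1 values were 0.60, 0.37 and 0.34 and no longer passed. The Tial1 call after IFNβ+zVAD was lost in 3 of the 8 omissions of an array, and that after IFNβ+zVAD+Nec-1 in 5 of 8. Among these were the omissions of WT untreated replicate 2 (0.61 and 0.58) and of Ifnar1-/- untreated replicate 1 (0.62 and 0.60). By the second Tial1 probe the same 3 differences were 2.01, 2.24 and 2.01 under that shift. They passed in limma (adjusted p = 0.00114, 0.000474 and 0.00129). The values after LPS+zVAD+Nec-1 include the Ifnar1-/- pair whose arrays stood apart. No group held enough arrays for a test of single outlying arrays.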

How the results depend on the processing

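Over 79 results and 1311 alternative values, 1123 kept their direction and their side of the threshold, 179 lost the call, 5 gained it and 4 changed sign. The sign changed for Zfp36 in Ifnar1-/- LPS against untreated (-0.24, without untreated replicate 2), for Elavl1 in WT LPS+zVAD+Nec-1 (-0.0372, median of probes), for Tial1 in WT LPS+zVAD against LPS (-0.48, median of probes) and for Tial1 between genotypes after LPS+zVAD+Nec-1 (-0.032, 75th percentile shift). The cause was not tested.

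Leaving out 1 array, Zfp36 ranged from 1.71 to 2.31 for Ifnar1-/- LPS+zVAD against LPS, from 1.77 to 2.88 for Ifnar1-/- LPS+zVAD, from 0.94 to 2.27 for WT LPS+zVAD against LPS, from -2.83 to -1.50 and from -2.07 to -1.45 between genotypes after LPS and LPS+zVAD, and from -3.34 to -2.23 and from -2.86 to -1.53 for the difference of the response after IFNβ+zVAD and LPS. For Ifnar1-/- LPS against untreated it ranged from -0.24 to 0.87. Member calls ranged from 21 to 30 (30 with all arrays) against untreated in WT, 4 to 7 (7) in Ifnar1-/- cells, 3 to 6 (5) for added zVAD or Nec-1, 2 to 10 (9) for genotype differences of the response and 13 to 16 (16) between genotypes, contrasts with the pair that stood apart not counted. The calls for added zVAD or Nec-1 were 8 with the median of probes, 3 with the authors' values and 9 without both arrays of that pair.

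With the replicate block the Zfp36 difference of the LPS response (-2.20) gained its call at adjusted p = 0.039, and of the 296 tests of a member in a comparison, 76 of them called, the block ended 0 calls and added 13. With the slide block it did so at 0.0152, and that after LPS+zVAD (-1.79) at 0.0257. The latter was -2.32 under the 75th percentile shift (adjusted p = 0.0433). Zfp36 in WT LPS+zVAD against LPS (1.6) lost its call in a fit of those groups alone (adjusted p = 0.109), and in Ifnar1-/- cells with the authors' values (1.93, adjusted p = 0.0534). The 75th percentile shift moved the median gene by 0.19 in WT LPS and by 0.33 in WT LPS+zVAD and turned the share of calls that were higher from 38.6% to 51.1% in WT LPS, from 37.5% to 49.4% in WT IFNβ and from 35.2% to 46.8% in WT LPS+zVAD, and under it the brightest Tial1 probe lost every WT call against untreated. Over the same 296 tests limma-trend ended 0 calls and added 3, the median of probes ended 3 and added 17, and keeping outlier spots ended 0 and added 0. Fits of the compared groups alone ended 26 and added 17, the 75th percentile shift ended 20 and added 3, and the authors' values ended 9 and added 0. Normexp, no filter and the filter of 2 arrays each ended 5 and added 0, and the slide block ended 2 and added 13. Without both arrays of the pair that stood apart 264 tests remained, 67 of them called. There 0 calls ended and 12 were added. Calls over all genes for the difference of the LPS response were 1063, 1862 with the replicate block and 2642 with the slide block, and those for Ifnar1-/- LPS+zVAD against LPS were 1367, 2222 and 3121. Fits of the compared groups alone moved the calls over all genes by more than 1.5 times in 19 of 37 comparisons, the slide block in 17 and the replicate block in 11.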
